A study of Aix galericulata with 8 samples.

Results

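Bone morphogenetic proteins (BMPs) and their relatives, the growth and differentiation factors (GDFs), were examined through 3 genes of growing Mandarin duck sail feathers, namely the ligands BMP4 and GDF5 and the target gene ID4. The members were chosen by symbol, as every gene model that the authors' annotation names BMP4, GDF5 or ID4 in either deposited table. This gave 4 of the 864 gene model entries, with 3 of 784 in the epithelium table and 1 of 80 in the pulp table. Each table holds only the gene models that the authors listed as differentially expressed between the vanes, so the P of that comparison decided which gene models could be found at all. Being held in a table is therefore part of how the members were chosen, and is not a result about them. The genes were also picked with earlier results of these data known.

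RNA came from sail feathers of wild-type male Mandarin ducks (Aix galericulata), plucked and collected again about 4 weeks later during the breeding season, and no treatment was given. The 8 libraries fall into 4 groups of 2, with the medial brown vane and its lateral blue counterpart each divided into epithelium and pulp. The submitters describe each library as an independent biological replicate, and the paper's methods name 2 males. With only 2 males, the 4 libraries of a tissue cannot come from 4 separate birds. Libraries of the 2 vanes may therefore be matched within a bird. The ages of the birds, and the male and wing behind each library, are not given in the sources used here. The methods also mention the neighbouring flight feather among the feathers plucked, whereas the labels, which were followed, give only the sail feather. The dissection separated the epithelium, which holds the keratinocytes that build the barbs, from the pulp, the mesenchymal core with its vessels. Whether each tissue carried its own defining markers could not be checked, because gene models outside the authors' lists are not in the tables analysed here.

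BMPs are secreted dimers of the TGF-beta superfamily. They bind type I and type II serine/threonine kinase receptors at the cell surface, and the receptors phosphorylate SMAD proteins that enter the nucleus and change transcription. Secreted antagonists such as noggin and gremlin hold the ligands away from the receptors. In the chicken feather, the balance of BMPs and noggin helps to set how barb ridges branch and where the rachis forms. ID genes are among the best known direct targets of this pathway. They encode helix-loop-helix proteins without a DNA-binding region, which pair with basic helix-loop-helix transcription factors and keep them off DNA.

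The question behind the design was which genes differ between the long medial brown vane and the short lateral blue vane in each tissue. For each gene model the deposited tables give the authors' mean over libraries, as log2 of the average CPM (a gene's read count divided by the library's effective size in units of 1e+06 reads), beside the fold change, P and FDR of their own comparison. These 3 columns of the comparison were not used here, and the tables hold 0 columns of values for single libraries. No difference between the vanes could therefore be computed, no direction is given for any member, and the mean of each gene model stands without an SD. The depth of each library is unknown. The authors' mean pools both vanes of a tissue, and no value of a single vane can be drawn from it. CPM is not divided by transcript length, and the tables give no gene model lengths. A larger CPM is therefore a larger share of the reads and does not rank transcript abundance between genes. Positions below are among the gene models that the authors listed, and give no standing among all genes of a tissue. In tissue of mixed cells, a lower share could come from fewer cells of a type or from less RNA per cell, which cannot be told apart.

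BMP4, a ligand that acts in epithelium and mesenchyme of the developing skin and its appendages, was represented by 1 gene model (Mandarin_00633300). It was found in the epithelium table alone. The authors' mean for BMP4 over the epithelium libraries was 4.76 on the log2 CPM scale, or 27.1 CPM. This read share was close to the middle of its table, where the median gene model had 28.7 CPM. Of the 784 gene models, 376 had a lower mean than BMP4 and 407 a higher one.

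GDF5, a ligand known for its part in joint formation and cartilage, also had 1 gene model (Mandarin_00699700), found in the pulp table alone. The authors' mean for GDF5 over the pulp libraries was 1.09 on the log2 CPM scale, or 2.13 CPM. It lay near the low end of its table, in which 10 of 80 gene models had a lower mean and 69 a higher one. The median gene model of the pulp table had 17.6 CPM, so that the GDF5 read share was 0.121 times that of the median. With depth unknown, the number of reads behind this small share and its precision are unknown too. A pseudocount (a small count added before the log) in the authors' mean would weigh most on such small values.

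ID4, the inhibitor of helix-loop-helix factors, had 2 gene models, both in the epithelium table. The first (Mandarin_01699900) had an authors' mean of 7.48 on the log2 CPM scale, or 179 CPM. It ranked 44 from the top of 784 gene models. The second (Mandarin_00789600) had a mean of 6.20 on the same scale, or 73.4 CPM, and ranked 140 from the top. Both ID4 gene models thus lay in the upper part of the table by read share, with 94.4% and 82.1% of its gene models below them.

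The ratio of the first ID4 gene model to the second was 2.44, and of their summed 252 CPM the first held 70.9% and the second 29.1%. The epithelium table has 31 symbols, ID4 among them, that are carried by exactly 2 gene models. Their ratios of the higher to the lower mean ran from 1.02 to 88.4 with a median of 2.20, and 13 of the 31 pairs had a larger ratio than ID4. The tables do not show whether the 2 gene models are separate copies, pieces of 1 gene or an annotation shared by similarity. Reads that fit both could have been dropped in the authors' counting, so each ID4 value is uncertain. The plot of cumulative shares sets the 4 gene models against all others of their tables.

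**Figure D1:**
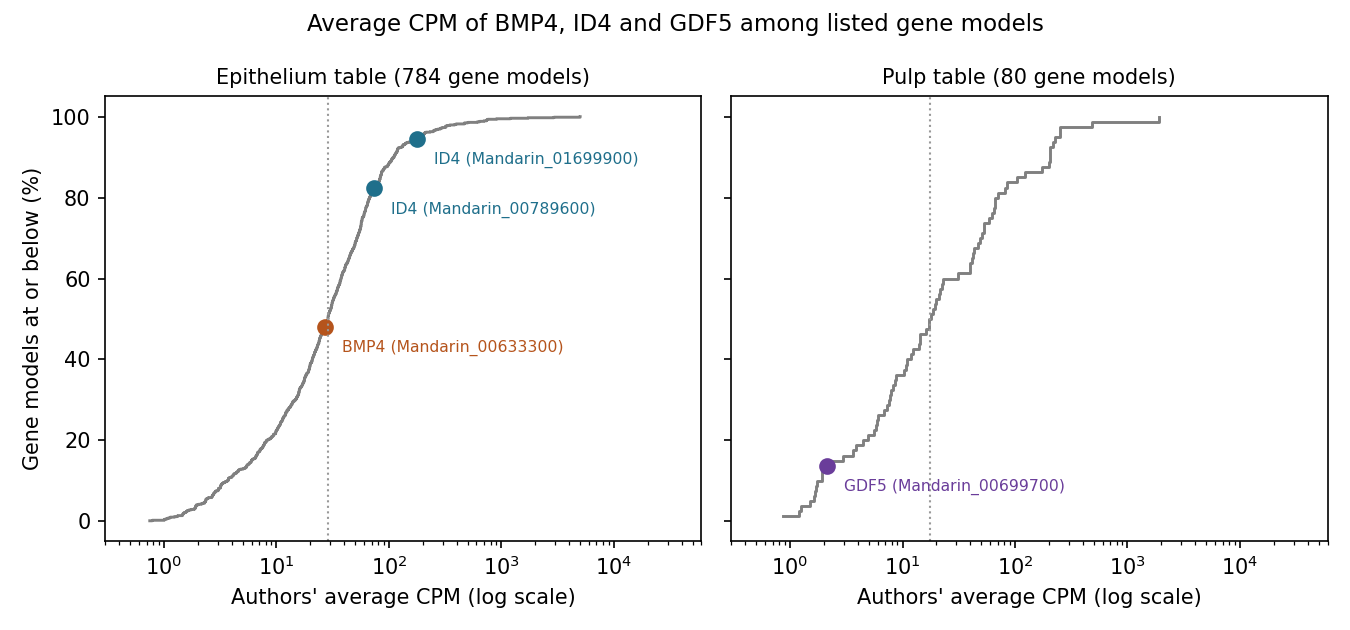
The cumulative share of gene models (percent, vertical axis) is plotted against the authors' average CPM (log axis) for the epithelium table (left, 784 gene models) and the pulp table (right, 80 gene models), with the members as coloured points and each table's median as a dotted line. BMP4 at 27.1 CPM sits beside the median of 28.7 CPM, both ID4 gene models (73.4 and 179 CPM) lie above it, and GDF5 at 2.13 CPM lies far below the pulp median of 17.6 CPM.

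No member was held in both tables. The tables have 5 gene models in common, and the authors' means of these differed between the tables by 1.42 to 3.95 on the log2 CPM scale, with 0 equal to within 0.001. The mean in each table was therefore not taken over one and the same set of libraries, and the epithelial values of BMP4 and ID4 are not compared with the pulp value of GDF5. That no gene model is named BMP4 or ID4 in the pulp table, or GDF5 in the epithelium table, gives no level for them in those tissues.

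A wider list of 97 symbols of the BMP and TGF-beta family, sorted by role, had 8 gene models of 7 genes in the epithelium table and 1 gene model in the pulp table, which was GDF5. The list was written with the paper's supplementary tables known. It was matched by symbol, and 214 of 784 epithelial and 23 of 80 pulp gene models carry no symbol. A listed gene could therefore be held without a name, and each absence below is of a symbol. How many gene models the authors tested is not given in the sources used here. The counts of listed genes held, by role or in all, therefore have no overall share to be set against. They are not a result about the family. Of 28 ligands, BMP4 and INHBA, which encodes a subunit of activin A and of inhibin A, were in the epithelium table. BMP4 and GDF5 were the sole gene models of either table with a BMP or GDF symbol, and ID4 was the sole ID symbol. INHBA had an authors' mean of 1.58 CPM, and 2.30% of the epithelium table lay below it.

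Of 18 receptors and co-receptors, 2 were in the epithelium table. ACVRL1, a type I receptor (ALK1) of endothelial cells that binds BMP9 and BMP10 in mammals, had an authors' mean of 64.3 CPM. ENG, the co-receptor endoglin that works with ALK1, had 50.0 CPM. Both were thus read in the epithelium libraries, and the dissection places the vessels in the pulp. The paper discusses ENG as a growth gene of the epithelium, citing proliferation of human skin keratinocytes and fibroblasts in culture. Whether vessel cells were present in the epithelium samples was not tested. The part of ACVRL1 and ENG in the BMP4 or ID4 values was not tested either. No gene model of either table carried a symbol of the BMPR family, and the levels of these receptors were not analysed here.

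Of 25 secreted antagonists and modulators, the epithelium table held VWC2, which encodes a secreted BMP-binding protein (brorin) described in mouse, at an authors' mean of 1.61 CPM. The paper located the transcript of gremlin (GREM1), another of the 25, in male sail feathers by in situ hybridization. It reports that GREM1 was not among its differentially expressed genes, and suspects that the small area of expression was the reason. Of 16 SMADs and SMAD regulators the epithelium table held ZEB1, a zinc finger transcription factor that binds SMADs in mammalian cells, at 2.72 CPM. Of 10 target genes it held ID4 alone by symbol. Over the 8 epithelial gene models of the list the median was 38.6 CPM, against 28.7 CPM over the whole epithelium table, and 4 of the 8 lay above the median of that table. The 5 gene models other than BMP4 and ID4 ran from 1.58 to 64.3 CPM, with a median of 2.72 CPM. The median of the list thus lay above that of the table only with the members included. Since the list was written with the paper's lists known and holds the members, these medians are not a result about the family. Both ID4 gene models had larger read shares than each of these 5.

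**Figure D2:**
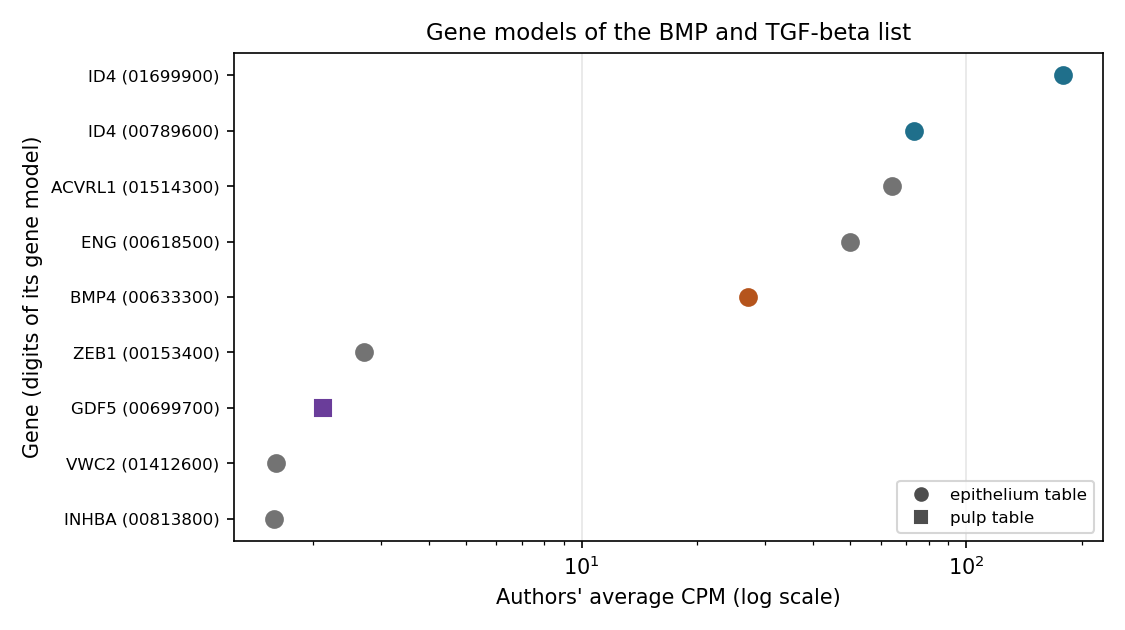
Each gene model of the BMP and TGF-beta list that the tables hold is plotted at the authors' average CPM (log axis), with circles for the epithelium table, a square for the pulp table, and BMP4, GDF5 and ID4 in colour. The ID4 gene models lead at 179 and 73.4 CPM, BMP4 lies between ENG (50.0 CPM) and ZEB1 (2.72 CPM), and GDF5 at 2.13 CPM lies beside ZEB1, INHBA and VWC2, although values of different tables and of genes of different length do not rank abundance.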

How the data were processed

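RNA-seq libraries were made from poly(A) RNA of epithelium and of pulp, 2 from the brown and 2 from the blue side of each. Per the labels, reads were aligned with STAR 2.4.1d, counted with HTSeq 0.6.0 and compared with edgeR, and the paper's methods add TMM normalization. The paper names a deposited Mandarin duck reference genome; the annotation version behind the gene models is not given in the sources used here. The log2 values used (logCPM) are the authors' mean over the libraries of a tissue, as deposited. The deposited tables also hold the logFC, P and FDR of the authors' own comparison of brown with blue, which were not used. They hold 0 columns per library, so no comparison of the vanes, and no interval or test of a level, was computed, and depth per library is unknown.

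Average CPM was taken as 2 to the power of logCPM, with no pseudocount added at this step and no filter. Whether the authors' logCPM already holds a pseudocount, which would weigh most on the smallest values, is not given in the sources used here. Each member was placed among all gene models of its table with Python 3.11.15, pandas 2.3.3, numpy 2.4.6 and scipy 1.17.1, and figures were drawn with matplotlib 3.10.9. The placing was tested on simulated data with known ranks and without ties or noise, which checks the counting alone. Named genes are the members and every gene model of the fixed BMP and TGF-beta list that a table holds. Members and lists were chosen with earlier results of these data known. Alternatives placed members among gene models with a symbol, or among those at 1 CPM or more, or summed the ID4 gene models. A position was taken as moved where it left the exact binomial (Clopper-Pearson) 95% interval of the share of gene models below the member, which describes no spread between libraries.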

Additional observations from a re-analysis of the deposited data

How the results depend on the processing

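With positions taken among gene models with a symbol, or among those with at least 1 CPM, the share of gene models below a member shifted by -2.35 to 1.23 percentage points. No position was taken as moved under these 2 alternatives. The limit of 1 CPM left out only 2 epithelial gene models and 1 pulp gene model, so it could hardly shift a position. Those with a symbol were also most of each table, 570 of 784 and 57 of 80, so a move was unlikely there too. When the 2 ID4 gene models were summed on the linear scale, 96.5% of the other epithelial gene models lay below the sum, against 94.4% and 82.1% of the table for the single gene models. The summed share left the interval of each single ID4 gene model, so both positions were taken as moved. A sum is larger than each of its parts, so neither position could have fallen under this alternative. Other symbols carried by 2 or more gene models were left unsummed, so the ID4 sum was placed among single gene models. No paired analysis was possible because the tables hold no values per library, and for the same reason leaving out a replicate, DESeq2 in place of edgeR and a count filter were not run. The precision of the low GDF5 share (2.13 CPM) is unknown, since the depth is.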
